A study of Lissachatina fulica and Mizuhopecten yessoensis with 12 samples.

Results

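The chamber differences of 323 genes were compared between the hearts of the scallop Mizuhopecten yessoensis, a bivalve, and the giant African snail Lissachatina fulica, a gastropod. A gene entered when its symbol was spelled identically in the deposited tables of both species and its normalized count averaged at least 10 over the 6 libraries of each. Where a symbol stood on several rows, the row with the highest mean was used. The 323 symbols were 14.8% of the 2179 scallop symbols and 44.6% of the 725 snail symbols at that level, out of 6081 rows in both tables. With no limit on the mean 377 symbols were shared, and 6 of the 323 had a snail mean between 10 and 12, the nearest to the limit being ANAPC10 at 10.1. The 4 groups were scallop atria (libraries titled shell), scallop ventricles, snail atria and snail ventricles, each with 3 libraries of polyadenylated RNA from adult hearts labelled wild type (WT). The labels named no treatment, age or sex, and did not say whether the 3 libraries of a group came from separate animals, so the p-values below reflect library-to-library spread alone, some of which may be technical.

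In bivalves and gastropods the atria receive hemolymph from the respiratory organs and fill a single, thicker-walled ventricle, which drives the hemolymph into the arteries. The ventricular wall works against a higher pressure, and cardiac muscle draws its ATP mainly from mitochondrial oxidation. In many molluscs the heart wall, often that of the atrium, also filters hemolymph into the pericardial cavity as the start of urine formation. Gene roles given below are those known from vertebrates unless a fly or worm is named.

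Both tables listed only genes that the authors had selected, and no row in the authors' deposited tables had an unadjusted p of 0.05 or more or a log2 fold change closer to 0 than 1.0006. Direction, size and spread are therefore the results, and a call is no independent evidence that a gene differed. Reads on the listed genes numbered between 10120508 and 21526834 per library in scallop and between 606309 and 1165104 in snail, so that a given level rests on fewer reads in snail. The deposited values carry no gene length, and levels of different genes are not compared. Symbols are annotation names and not ortholog calls, and 247 of the 323 stood on a single row in each table. Tm2, the tropomyosin named after the fly gene, and TNNT2, a troponin T of heart muscle, had reads in all 12 libraries. Scallop ventricle 3 lay over halfway toward the scallop atria for 85 of the 323 genes, with a median of 33.4% of the way. Snail atrium 2 lay over halfway toward the snail ventricles for 33 genes. Snail ventricles 1, 2 and 3 lay over halfway toward the snail atria for 26, 25 and 26 genes. Results that rest on scallop ventricle 3 or snail atrium 2 are given with and without them, except for some genes such as AMN, EBF2, CA4 and COL5A2. These libraries were picked from the same values. A value without one of them is therefore a description and no independent evidence.

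Chamber differences ran the same way in both hearts for 255 of the 323 genes (78.9%). Of these, 76 were higher in the atrium of both species (23.5% of all) and 179 in the ventricle of both (55.4%). The other 68 were opposed, with 30 higher in the scallop atrium and the snail ventricle (9.29%) and 38 higher in the scallop ventricle and the snail atrium (11.8%). A gene was called when its limma adjusted p over all tested rows of its table was under 0.05 with at least a 2-fold change on the log2(normalized count + 1) scale. In scallop 303 of the 323 genes were called (93.8%, against 87.6% of all 3927 tested rows), 103 toward the atrium, where 42.0% of all tested rows were called, and 200 toward the ventricle, against 45.6%. In snail 277 were called (85.8%, against 83.9% of all 1489 tested rows), 91 toward the atrium, against 46.9% of all tested rows, and 186 toward the ventricle, against 37.0%. By the adjusted p of the authors' deposited tables, 271 of the 323 stood under 0.05 in scallop, where 71.5% of all tested rows did, and 270 in snail, against 77.2%. Atria and ventricles did not overlap for 300 genes in scallop (92.9%, against 87.8% of all tested rows) and for 285 in snail (88.2%, against 86.2%). The 263 genes called in both species divided into 59 atrial in both, 156 ventricular in both, 25 atrial in scallop and ventricular in snail, and 23 ventricular in scallop and atrial in snail, so that 81.7% ran the same way.

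**Figure D1:**
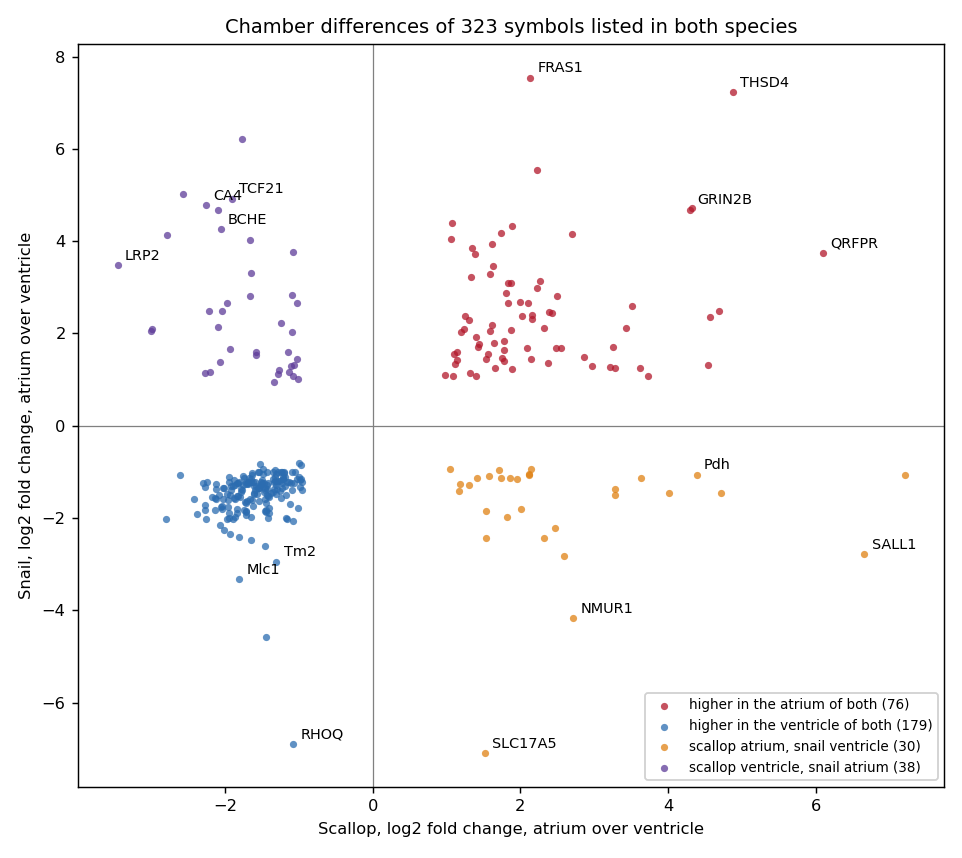
Log2 fold change, atrium over ventricle, in snail (vertical axis) against scallop (horizontal axis) for the 323 shared symbols, 1 point each, coloured by direction. The 179 genes that were ventricular in both form a compact group at lower left, with median log2 fold changes of −1.56 in scallop and −1.36 in snail, while the other 144 points spread widely and leave the centre empty, since the tables list no gene with a smaller difference.

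Genes that were ventricular in both hearts formed the tightest group, as the scatter plot of fold changes shows. For the genes that were atrial in both, the median log2 fold change was 1.87 in scallop and 2.12 in snail. For those ventricular in both it was −1.56 in scallop and −1.36 in snail. Across the 323 genes, which share their libraries, the fold changes of the species had a Pearson correlation of 0.387 and a Spearman correlation of 0.397, given as a description. Within the genes atrial in both the Pearson correlation was 0.205, and within those ventricular in both it was 0.11. Of the snail's atrial symbols 114 of 326 (35%) were also listed in scallop, against 209 of 399 (52.4%) of its ventricular symbols, a difference that was not tested. For scallop symbols the shares were 14.3% of 739 atrial and 15.1% of 1440 ventricular.

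The interaction of species and chamber, computed as the scallop log2 fold change minus the snail log2 fold change, passed a limma adjusted p under 0.05 for 76 of the 323 genes (23.5%), with 35 positive (10.8%) and 41 negative (12.7%). At an unadjusted p under 0.05 it passed for 90. Of the 68 opposed genes 63 passed, and of the 255 same-direction genes 13 passed. The first count is fixed by the listing, because 2 fold changes of opposite sign that both reach the listing limit differ by about 2 on the log2 scale or more, and nothing is read from it. The median absolute interaction was 3.79 among opposed genes and 0.37 among same-direction genes, and the smallest among opposed genes was 1.97 for JAG1. The 5 opposed genes that did not pass were CD209, Cht7, GM2A, MRC1 and PTGR1.

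The counts depended on how the scallop libraries were scaled and on single scallop atria. Over all tested scallop rows the median log2 fold change was −1.01, and it became −0.52 with a further TMM scaling, −0.36 with quantile normalization and 0.18 after the libraries were rescaled to equal medians of their cytosolic ribosomal protein rows. In snail the median was 1.22, with 1.30 under TMM and 0.23 under quantile normalization. The share of scallop calls on the atrial side was 47.9%, against 74.4% under TMM, 71.1% with edgeR, 82.8% with DESeq2 and 96.4% after the ribosomal rescaling. In snail it was 55.9%, against 34.5% under quantile normalization. Without scallop atria 1, 2 and 3 in turn, 28, 27 and 39 genes were called atrial in both, and 13, 13 and 12 ventricular in scallop and atrial in snail. No direction of a shared gene turned under TMM, edgeR or DESeq2. Under quantile normalization 4 scallop and 7 snail directions turned. Setting the median of all tested rows to 0 turned 10 scallop and 13 snail directions, and under the ribosomal rescaling 36 scallop directions turned.

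The shared ventricular group was made up mainly of mitochondrial genes. All 52 shared genes of the respiratory chain and ATP synthase were higher in the ventricle of both species, and 50 were called in both. COX17 and NDUFAF6, which help assemble the chain, were not called in snail. The median log2 fold change of the 52 was −1.91 in scallop, against −1.01 over all tested scallop rows, and −1.50 in snail, against 1.22 over all tested snail rows. In the whole tables every listed row of this list was ventricular as well, 65 of 65 in scallop and 62 of 62 in snail, whereas 2141 of 3927 scallop rows and 631 of 1489 snail rows lay on that side. Fold changes ranged between −2.38 and −1.17 in scallop and between −2.40 and −0.99 in snail. No interaction was called among the 52, with values between −0.94 and 0.59, which does not establish equal differences. In bulk tissue, fewer cells of a type and less RNA per cell cannot be told apart.

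ATP5B, the catalytic beta subunit of the ATP synthase (Miz0183930.1 in scallop and Afu002960 in snail), had 33985, 34646 and 38123 normalized counts in the scallop atria, against 144890.0, 102910.0 and 109370.0 in the scallop ventricles. In snail it had 6518, 6294 and 5761 in the snail atria, against 20095, 18797 and 19241 in the snail ventricles. Each ventricle stood above every atrium, and the log2 fold changes of −1.73 ± 0.31 in scallop (limma adjusted p = 0.00254) and −1.65 ± 0.17 in snail (limma adjusted p = 0.000678) differed by −0.08 ± 0.28 (limma adjusted p = 0.946). COX4I1, a subunit of cytochrome c oxidase, had 5187, 5983 and 5263 normalized counts in the scallop atria, against 28389, 24418 and 16656 in the scallop ventricles. It had 1170.0, 1326 and 834 in the snail atria, against 3334, 4285 and 3543 in the snail ventricles, so that each ventricle again exceeded every atrium, with log2 fold changes of −2.05 ± 0.31 in scallop and −1.76 ± 0.24 in snail. NDUFS1, an iron-sulfur subunit of complex I, stood at −1.18 in scallop and −1.49 in snail, UQCRFS1, the Rieske protein of complex III, at −2.03 and −1.58, and SDHA, the catalytic subunit of complex II, at −1.17 and −1.22. The electron carrier cytochrome c, CYCS, had log2 fold changes of −1.72 ± 0.46 in scallop and −1.92 ± 0.30 in snail. All 5 complexes were thus represented on the ventricular side of both hearts. Among the subunits with the largest change in both species, NDUFB7 of complex I had log2 fold changes of −2.07 ± 0.32 in scallop and −2.16 ± 0.39 in snail, NDUFA2 −2.26 ± 0.34 in scallop and −2.02 ± 0.57 in snail, NDUFS6 −2.02 ± 0.32 in scallop and −2.26 ± 0.39 in snail and NDUFA6 −1.97 ± 0.34 in scallop and −2.01 ± 0.27 in snail. NDUFAB1, the mitochondrial acyl carrier protein, had −2.38 ± 0.34 in scallop and −1.90 ± 0.33 in snail, ATP5J of the ATP synthase stalk −1.94 ± 0.30 in scallop and −2.00 ± 0.26 in snail, ATP5H of the same stalk −1.89 ± 0.31 in scallop and −2.01 ± 0.28 in snail and COX6A1 of cytochrome c oxidase −1.94 ± 0.31 in scallop and −2.34 ± 0.21 in snail. COX5A, of cytochrome c oxidase, had −1.95 ± 0.31 in scallop and −1.75 ± 0.26 in snail and ATP5F1, of the ATP synthase, −1.97 ± 0.31 in scallop and −1.47 ± 0.23 in snail. With 1 library left out, 46 to 50 of the 52 were called in both. Among the genes of this list given here the calls of NDUFA2 in snail (−1.85 to −1.63 without ventricle 1 or 3), COX17 in scallop (−1.24 without atrium 1) and NDUFAF6 in scallop (−1.35 without atrium 2) were lost.

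The 20 shared mitochondrial ribosomal proteins, which build the organelle's own ribosome, were all ventricular and all called in both hearts, with median log2 fold changes of −1.53 in scallop and −1.28 in snail and no interaction called. MRPS7, of the small subunit, had 577, 458 and 503 normalized counts in the scallop atria, against 2108, 1513 and 824 in the scallop ventricles. It had 229.9, 232 and 181 in the snail atria, against 403, 529 and 659.7 in the snail ventricles, again with no overlap between chambers. MRPL51, of the large subunit, had log2 fold changes of −1.41 ± 0.39 in scallop and −1.78 ± 0.31 in snail, and MRPS9, of the small subunit, −1.49 ± 0.33 in scallop and −1.16 ± 0.39 in snail. With 1 library left out, 14 to 20 of the 20 were called in both, the lowest count being that without snail ventricle 2. Among the 3 genes given here the calls of MRPL51 in scallop (−1.25 without atrium 1) and MRPS9 in snail (−1.16 to −0.73 without atrium 1 or 3 or ventricle 2) were lost.

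Fuel oxidation lay on the same side for 14 of 15 shared genes, all called in both species. MDH2, the mitochondrial malate dehydrogenase of the citric acid cycle, had 7357, 7551 and 9377 normalized counts in the scallop atria, against 33282, 27227 and 19551 in the scallop ventricles. It had 3547, 3366 and 3315 in the snail atria, against 8129.9, 15726 and 9356 in the snail ventricles. Each ventricle exceeded every atrium, with log2 fold changes of −1.70 ± 0.31 in scallop and −1.64 ± 0.27 in snail. PDHB, a subunit of the pyruvate dehydrogenase that feeds the cycle, had −1.84 ± 0.31 in scallop and −1.52 ± 0.30 in snail, IDH2 −1.61 ± 0.37 in scallop and −1.30 ± 0.27 in snail, the cytosolic malate dehydrogenase MDH1 −1.61 ± 0.30 in scallop and −1.45 ± 0.21 in snail, and TPI1, a glycolytic enzyme, −1.88 ± 0.35 in scallop and −1.57 ± 0.24 in snail. The exception was Pdh, a symbol of the photoreceptor dehydrogenase of the fly, a retinol dehydrogenase, and not a member of the fuel pathway. The 11 shared carriers, import and cristae proteins were all ventricular in both, and 9 were called in both. SLC25A31, an ADP/ATP carrier, had log2 fold changes of −1.44 ± 0.34 in scallop and −1.67 ± 0.25 in snail, the phosphate carrier SLC25A3 −1.66 ± 0.31 in scallop and −1.59 ± 0.27 in snail and the outer-membrane channel VDAC2 −1.63 ± 0.31 in scallop and −1.61 ± 0.20 in snail. In a further list of 32 mitochondrial proteins, gathered after the data had been seen, 30 were ventricular in both. The exceptions were GLUD1 and ABAT. The number of fuel oxidation genes called ventricular in both was 10 after TMM scaling and with edgeR, 5 with quantile normalization and with DESeq2, and 0 after the ribosomal rescaling or with the median of all tested rows set to 0. For the carriers, import and cristae proteins it was 5 after TMM scaling and with edgeR, 3 with quantile normalization, 1 with DESeq2 and 0 after the ribosomal rescaling or with the median set to 0.

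Taken over the 5 mitochondrial lists, 127 of 130 genes were ventricular in both and 119 of these were called in both. The total includes the list of 32 genes gathered after the data had been seen. The 193 genes outside these lists divided into 76 atrial in both, 52 ventricular in both, 29 atrial in scallop and ventricular in snail, and 36 ventricular in scallop and atrial in snail, so that 128 of 193 ran the same way outside the lists. That difference between mitochondrial and other genes was not tested. The scallop side of this result moved with scaling. Of the 52 respiratory chain genes, 43 were called ventricular in both after TMM scaling, 37 with edgeR, 35 with quantile normalization, 34 with DESeq2, 17 with the median of all tested rows set to 0 and 5 after the ribosomal rescaling, which turned 2 of the 52 scallop directions. Of the 20 mitochondrial ribosomal proteins, 11 were called in both after TMM scaling, 14 with quantile normalization, 9 with edgeR, 3 with DESeq2 and 0 with the median set to 0 or after the ribosomal rescaling, which turned 1 direction. Without scallop ventricle 3, and likewise without snail atrium 2, 50 of 52 and 20 of 20 were called in both.

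**Figure D2:**
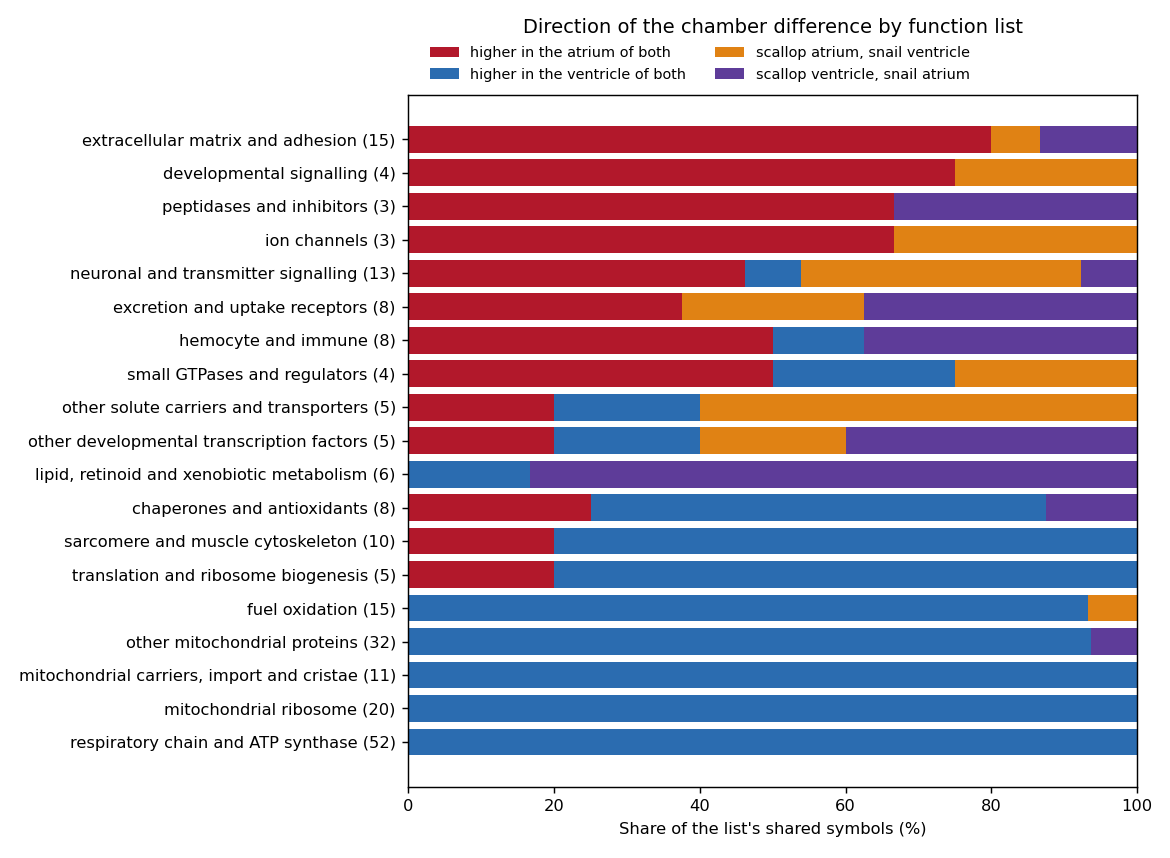
Share of each function list's shared symbols in the 4 direction groups, with the number of symbols in parentheses, for lists with at least 3. The lowest bars, the respiratory chain (52), mitochondrial ribosome (20), mitochondrial carriers (11), other mitochondrial proteins (32) and fuel oxidation (15), are ventricular in both or nearly so, while extracellular matrix (12 of 15) is mostly atrial in both and lipid metabolism (5 of 6) mostly opposed.

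Most shared muscle genes were ventricular in both hearts, with a larger chamber difference in snail for part of the contractile apparatus. Of 10 shared genes sorted to the sarcomere and muscle cytoskeleton, 8 were ventricular in both and 7 of these were called in both. TPMT among the 8 is thiopurine methyltransferase, caught by its first letters, and is no muscle gene. In the full listings 20 of 27 scallop rows of this list were ventricular. The 21 snail rows were split, with 11 ventricular and 10 atrial, unlike those of the respiratory chain. Tm2 (Miz0207020.1 in scallop and Afu002661 in snail) had 188120.0, 188970.0 and 194560.0 normalized counts in the scallop atria, against 608320.0, 477950.0 and 357750.0 in the scallop ventricles. It had 3681, 3667 and 3072 in the snail atria, against 19610.0, 46401 and 20937 in the snail ventricles. Each ventricle exceeded every atrium in both species, and the log2 fold changes of −1.30 ± 0.36 in scallop and −2.95 ± 0.35 in snail gave an interaction of 1.64 ± 0.44 (limma adjusted p = 0.0116). Mlc1, a muscle myosin light chain of the fly, had 40094, 56747 and 54389 normalized counts in the scallop atria, against 242490.0, 174170.0 and 124890.0 in the scallop ventricles. It had 514, 1187 and 471 in the snail atria, against 7069.7, 6856 and 5949.7 in the snail ventricles, with log2 fold changes of −1.80 ± 0.36 in scallop and −3.32 ± 0.37 in snail and an interaction of 1.52 ± 0.47 (limma adjusted p = 0.0269). A second snail row named Mlc1 was higher in the atrium (log2 fold change 3.26), and with the copies summed the interaction of Mlc1 was −0.67.

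Other filament genes differed less between the species. TNNT2 had log2 fold changes of −1.13 ± 0.36 in scallop and −1.69 ± 0.21 in snail, mlc-4, a nonmuscle myosin light chain of the worm, −1.64 ± 0.35 in scallop and −2.48 ± 0.33 in snail, CSRP1, a LIM protein of the actin cytoskeleton, −1.63 ± 0.34 in scallop and −1.02 ± 0.32 in snail, and ACTB, an actin, −1.01 ± 0.41 in scallop and −1.79 ± 0.43 in snail, with no interaction called. For unc-22, the twitchin of worm muscle, the log2 fold changes of −0.97 ± 0.60 in scallop and −0.85 ± 0.44 in snail did not pass the test in either species, and a second snail row of unc-22 was atrial (3.37). MYO15A, an unconventional myosin, and SPTBN5, a beta spectrin, lay on the atrial side. SPTBN5 had log2 fold changes of 2.15 ± 0.31 in scallop and 2.31 ± 0.51 in snail, and MYO15A 2.10 ± 0.41 in scallop and 2.67 ± 1.41 in snail, the snail value of MYO15A not being called with atrium 2 (3.79 normalized counts) among the ventricles. After the ribosomal rescaling 3 of the 10 scallop directions turned (ACTB to 0.18, TNNT2 to 0.0678 and unc-22 to 0.21), and under quantile normalization ACTB stood at 0 in scallop. After TMM scaling 2 of the 10 genes were called ventricular in both and 1 atrial in both. Without scallop atrium 1, 2 or 3 in turn, 3 genes of the list were called ventricular in both, against 7 with all libraries. With 1 library left out, calls were lost for ACTB in scallop (−1.13 to −0.74 without atrium 1, 2 or 3 or ventricle 1 or 2), TNNT2 in scallop (−1.19 to −0.81 without atrium 1, 2 or 3 or ventricle 1) and Tm2 in scallop (−1.32 to −1.29 without atrium 1, 2 or 3). They were also lost for TPMT in scallop (−1.26 to −0.82 without atrium 1, 2 or 3 or ventricle 2), TPMT in snail (−0.93 without atrium 1 or ventricle 2), CSRP1 in snail (−1.03 to −0.77 without atrium 1 or 3 or ventricle 2) and the interaction of Mlc1 (1.27 to 1.52 without scallop atrium 2 or 3 or scallop ventricle 2 or 3 or snail atrium 1 or 3 or snail ventricle 1 or 2).

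Among the lists with at least 3 shared genes, extracellular matrix, developmental signalling, peptidases and ion channels had most of their genes higher in the atrium of both hearts. For ion channels these were 2 of 3 genes, with 1 called in both. In the full listings all 23 scallop rows of ion channels were atrial, but 9 of 13 snail rows were ventricular. Of 15 shared matrix and adhesion genes, 12 were atrial in both (10 called in both), none was ventricular in both and 3 were opposed. The 10 called in both became 7, 5 and 8 without scallop atria 1, 2 and 3 in turn and 6 without scallop ventricle 2. The list's median log2 fold change was 1.73 in scallop and 2.68 in snail, against −1.01 and 1.22 over all tested rows of each table. Over both full listings 51 of 59 scallop rows and 25 of 27 snail rows of this list were atrial.

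THSD4, an ADAMTS-like protein that binds fibrillin microfibrils (Miz0184050.1 in scallop and Afu001325 in snail), had the largest change of the 323 genes when each was taken at the smaller of its 2 fold changes. It had 34913, 22263 and 24084 normalized counts in the scallop atria, against 670.4, 844 and 1291 in the scallop ventricles. In snail it had 10738, 7648 and 6376 in the snail atria, against 58.3, 164 and 14.8 in the snail ventricles. The chambers were far apart in both, with log2 fold changes of 4.88 ± 0.34 in scallop (limma adjusted p = 2.19e-05) and 7.23 ± 0.79 in snail (limma adjusted p = 0.000795) and an interaction of −2.35 ± 0.84 (limma adjusted p = 0.057). All 3 scallop rows and both snail rows of this name were atrial. COL5A2, a fibrillar collagen, had 90155, 82486 and 77100.0 normalized counts in the scallop atria, against 50483, 20289 and 36624 in the scallop ventricles. It had 13242, 6335 and 13511 in the snail atria, against 6699, 4396 and 3519 in the snail ventricles, with log2 fold changes of 1.31 ± 0.38 in scallop and 1.15 ± 0.38 in snail and with snail atrium 2 among the ventricles. COL6A3, a chain of the microfibrillar collagen VI, had log2 fold changes of 1.64 ± 0.30 in scallop and 1.78 ± 0.47 in snail, the integrin subunit ITGA9 3.26 ± 0.76 in scallop and 1.70 ± 0.29 in snail and the matrix metalloprotease MMP21 2.86 ± 0.32 in scallop and 1.48 ± 0.42 in snail. Fibrillin itself, FBN1, had 1.99 ± 0.46 in scallop and 2.68 ± 1.53 in snail, and was not called in snail with all libraries. Without snail atrium 2, which lay apart for this gene, its snail value was 4.25 ± 0.94. Leaving out 1 library ended the calls of COL5A2 in scallop (0.95 to 1.32 without atrium 1 or 2 or ventricle 2), COL5A2 in snail (0.94 to 1.10 without atrium 1 or 3 or ventricle 2 or 3) and MMP21 in snail (1.28 without atrium 3), and the snail direction of COL5A2 turned to −0.11 where the median of all tested rows was set to 0.

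Within this group the snail difference was often the larger. FRAS1, a basement membrane protein of epithelia, had 122, 131 and 100.3 normalized counts in the scallop atria, against 17.7, 12 and 78.8 in the scallop ventricles. It had 3421, 1565 and 2239.5 in the snail atria, against 47.5, 15.4 and 1.34 in the snail ventricles. The log2 fold changes of 2.13 ± 0.72 in scallop and 7.54 ± 1.03 in snail gave an interaction of −5.41 ± 1.27 (limma adjusted p = 0.00544). Its binding partner FREM1 had 738, 871 and 662 normalized counts in the scallop atria, against 284, 307 and 514 in the scallop ventricles. It had 429.9, 298 and 392 in the snail atria, against 11.9, 39.3 and 9.41 in the snail ventricles, with an interaction of −3.32 ± 0.66 (limma adjusted p = 0.00149). Both members of the pair therefore passed the test of a larger atrial excess in snail. The interaction was also negative for the thrombospondin-repeat gene THSD7A (−2.33 ± 0.69, adjusted p = 0.021) and for Mmp1, a matrix metalloprotease of the fly (−2.45 ± 0.84, adjusted p = 0.0473). Single-library omissions ended the calls of FRAS1 in scallop (1.61 to 2.24 without atrium 1, 2 or 3 or ventricle 1 or 2) and FREM1 in scallop (0.92 to 1.17 without atrium 1, 2 or 3 or ventricle 1 or 2). They also ended those of the interaction of THSD7A (−2.34 to −2.18 without scallop atrium 2 or 3 or snail atrium 3) and the interaction of Mmp1 (−2.41 to −2.02 without scallop atrium 1 or 3 or scallop ventricle 1 or 3 or snail atrium 1 or 3 or snail ventricle 2 or 3).

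Among 13 shared genes of neuronal and transmitter signalling, 6 were atrial in both (5 called in both), 1 was ventricular in both and 6 were opposed. GLRX5, the ventricular gene, is a mitochondrial glutaredoxin. SLC17A5, one of the opposed genes, is the lysosomal transporter sialin, and neither is particular to nerve cells. GRIN2B, a subunit of NMDA-type glutamate receptors (Miz0228820.1 in scallop and Afu005200 in snail), had 756, 779 and 731 normalized counts in the scallop atria, against 15.5, 46.6 and 72.3 in the scallop ventricles. It had 23.4, 19.7 and 32.6 normalized counts in the snail atria, against 0, 0 and 0 in the snail ventricles. With no read in any snail ventricle, its snail level was at least 19.2-fold higher in atria, taking 3 reads over the group as the floor. The log2 fold changes were 4.29 ± 0.57 in scallop (limma adjusted p = 0.000656) and 4.68 ± 0.71 in snail (limma adjusted p = 0.00222). QRFPR, a neuropeptide receptor, had 95.8, 94.6 and 138 normalized counts in the scallop atria, against 0, 3.01 and 0 in the scallop ventricles. In the scallop ventricles its values rest on 2 reads, and the ratio of atrial to ventricular reads was 146 with a 95% counting interval of 40.2 to 1211. It had 134, 118 and 92.4 in the snail atria, against 10.8, 3.42 and 10.7 in the snail ventricles, with log2 fold changes of 6.10 ± 0.81 in scallop and 3.75 ± 0.47 in snail. PCSK1, a prohormone convertase that matures neuropeptides, had log2 fold changes of 1.88 ± 0.54 in scallop and 4.32 ± 0.30 in snail and an interaction of −2.44 ± 0.65 (limma adjusted p = 0.0115). CNTNAP1, a cell adhesion protein of axons, had 1.33 ± 0.53 in scallop and 3.22 ± 0.52 in snail and the growth factor NRG2 3.28 ± 0.84 in scallop and 1.25 ± 0.47 in snail. Summed over the 13 genes, normalized counts ranged between 9155 and 9580 in scallop atria, against 5715 and 7965 in scallop ventricles, and between 1481 and 1578 in snail atria, against 1156 and 2658 in snail ventricles. With all 13 genes the snail chambers thus overlapped. Without GLRX5 and SLC17A5 the sums ranged between 8110.2 and 8700.3 in scallop atria, against 3451 and 3768 in scallop ventricles. In snail they then ranged between 1415 and 1498 in the atria, against 298 and 360.4 in the ventricles. This exclusion was not planned and was made for no other list. Both genes taken out were higher in the snail ventricles, so nothing is read from the wider snail gap. Apart from GRIN2B in the snail ventricles, no member was at 0 in all 3 libraries of a group. Whether nerve cell content had a part in these differences was not tested. Without scallop atrium 2 the genes called atrial in both numbered 3, and without scallop atrium 1 or 3 they numbered 4, against 5 with all libraries. Among the genes of this paragraph, leaving out 1 library ended the calls of PCSK1 in scallop (1.64 without atrium 2), CNTNAP1 in scallop (0.74 to 1.64 without atrium 1, 2 or 3 or ventricle 1) and NRG2 in snail (0.78 to 1.43 without atrium 1, 2 or 3 or ventricle 1 or 3).

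Of 4 shared developmental signalling genes, 3 were atrial in both. SFRP5, a secreted inhibitor of Wnt signalling, had 8603, 11237 and 9923 normalized counts in the scallop atria, against 2225, 2558 and 2492 in the scallop ventricles. It had 91.2, 166 and 113 in the snail atria, against 24.8, 15.4 and 28.2 in the snail ventricles. No chamber overlapped, and the log2 fold changes of 2.03 ± 0.28 in scallop and 2.38 ± 0.36 in snail differed by −0.36 ± 0.42. The Wnt receptor FZD9 had log2 fold changes of 1.63 ± 0.51 in scallop and 3.46 ± 0.34 in snail, with an interaction of −1.84 ± 0.62 (limma adjusted p = 0.0452), and the BMP antagonist NOG had 1.53 ± 0.89 in scallop and 1.45 ± 0.56 in snail, not called in scallop, where atrium 2 alone stood high. HES1, a transcriptional repressor downstream of Notch, was the only shared heart transcription factor, with log2 fold changes of 1.08 ± 0.43 in scallop and 1.08 ± 0.23 in snail. The snail direction of HES1 turned to −0.18, and the interaction of FZD9 to 0.41, where the median of all tested rows was set to 0. JAG1, a Notch ligand, pointed to the scallop atrium and the snail ventricle, with 1.05 ± 0.33 in scallop and −0.93 ± 0.40 in snail, not called in snail. Without single libraries the calls were lost for FZD9 in scallop (1.23 to 1.67 without atrium 1, 2 or 3 or ventricle 2), the interaction of FZD9 (−1.91 to −1.36 without scallop atrium 1, 2 or 3 or scallop ventricle 1 or 3 or snail atrium 1, 2 or 3 or snail ventricle 2 or 3) and NOG in snail (1.10 to 1.45 without atrium 1 or 3 or ventricle 1 or 3). For Notch genes they were lost for HES1 in scallop (0.81 to 1.16 without atrium 1, 2 or 3 or ventricle 1), HES1 in snail (0.93 without atrium 1) and JAG1 in scallop (0.89 to 1.04 without atrium 2 or 3 or ventricle 2).

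Several atrial genes outside the lists of matrix and signalling had large differences in both hearts. GUCY1B3, a subunit of the soluble guanylate cyclase that responds to nitric oxide, had 1031, 1034 and 1427 normalized counts in the scallop atria, against 63.1, 28.6 and 59.1 in the scallop ventricles. It had 52.5, 35.6 and 43.2 in the snail atria, against 10.8, 13.7 and 2.69 in the snail ventricles, with log2 fold changes of 4.57 ± 0.46 in scallop (limma adjusted p = 0.000156) and 2.36 ± 0.58 in snail (limma adjusted p = 0.0102). DUOX2, an oxidase that makes hydrogen peroxide, had log2 fold changes of 4.69 ± 0.74 in scallop and 2.48 ± 0.66 in snail, and MEP1B, the metalloprotease meprin beta, 4.33 ± 1.19 in scallop and 4.71 ± 0.84 in snail. TOLL6, a Toll-type receptor of the fly, had 2.42 ± 0.65 in scallop and 2.43 ± 0.37 in snail, and unc-32, a proton pump subunit of the worm, 2.39 ± 0.64 in scallop and 2.46 ± 0.51 in snail. For TOLL6 and unc-32 the interactions were −0.01 and −0.07 at the main scaling, so that the estimated sizes were close. Interactions shift with the scaling of each species, and such values do not establish equal sizes. The big-conductance potassium channel KCNMA1 had 2.55 ± 0.73 in scallop and 1.70 ± 0.73 in snail, not called in snail, and the anoctamin ANO7 2.09 ± 0.46 in scallop and 1.69 ± 0.60 in snail. Omitting 1 library ended the calls of MEP1B in scallop (3.85 without atrium 2), TOLL6 in scallop (2.04 without atrium 2), KCNMA1 in scallop (2.39 without atrium 2) and ANO7 in snail (1.25 to 1.72 without atrium 1 or 3 or ventricle 1 or 3).

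**Figure D3:**
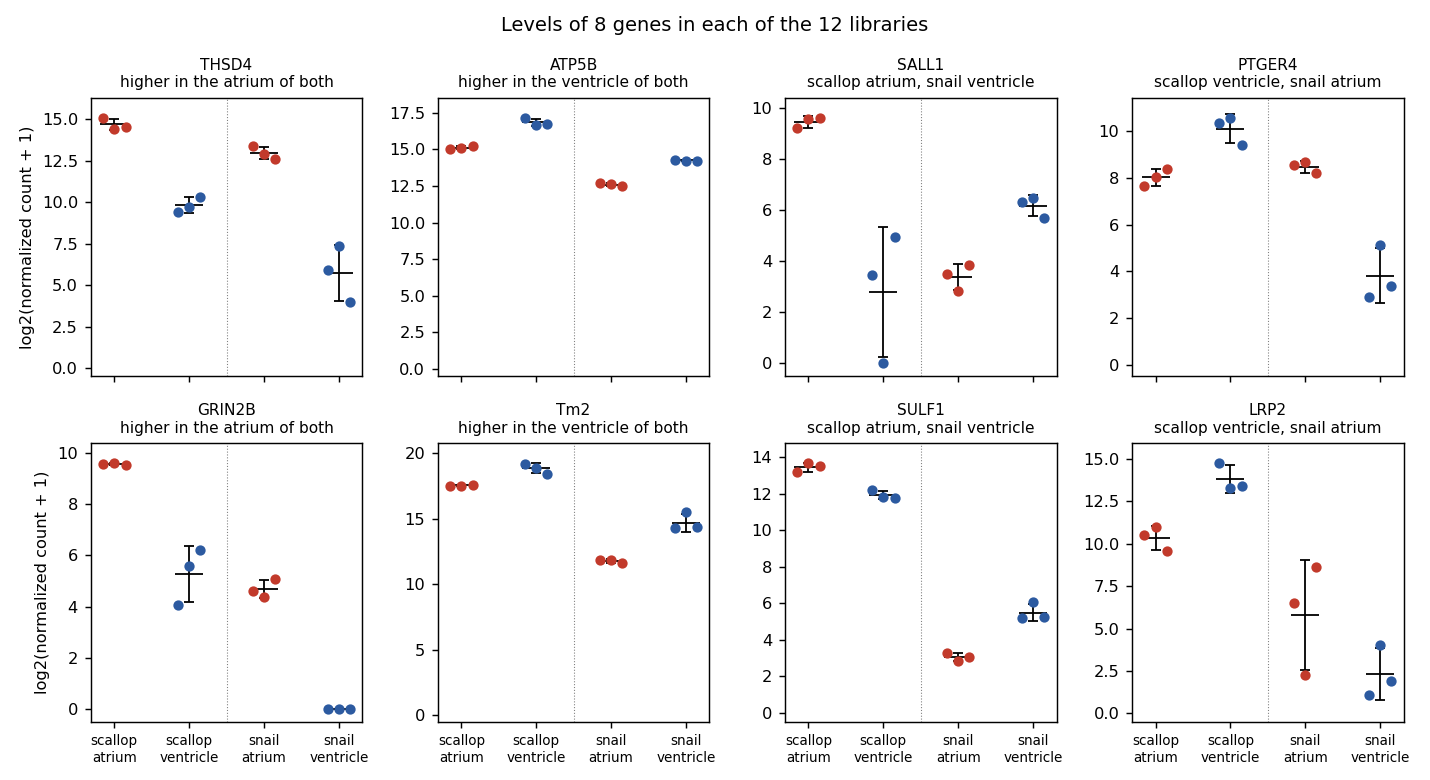
Level of 8 genes, as log2(normalized count + 1), in the 3 libraries of each group, with the group mean (horizontal mark) and SD (bar); vertical scales differ between panels. From left to right the columns show genes atrial in both, ventricular in both, atrial in scallop and ventricular in snail, and ventricular in scallop and atrial in snail. LRP2 in snail atrium 2 (3.79 normalized counts) lies among the snail ventricles.

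The opposed genes that were higher in the scallop atrium and the snail ventricle numbered 30, of which 25 were called in both species. SALL1, a zinc-finger transcription factor of kidney and limb development (Miz0143370.1 in scallop and Afu012330 in snail), had the largest interaction of all 323 genes. It had 584, 760.3 and 785 normalized counts in the scallop atria, against 9.96, 0 and 30.0 in the scallop ventricles. It had 10.2, 6.07 and 13.3 in the snail atria, against 78.8, 88.8 and 51.1 in the snail ventricles. The groups did not overlap in either species, and the log2 fold changes of 6.66 ± 1.04 in scallop (limma adjusted p = 0.00141) and −2.79 ± 0.41 in snail (limma adjusted p = 0.0019) differed by 9.45 ± 1.31 (limma adjusted p = 0.000116). SLC17A5, the lysosomal sialic acid transporter sialin, had 294, 359 and 213 normalized counts in the scallop atria, against 73, 54.1 and 235 in the scallop ventricles. It had 13.1, 14.4 and 3.32 in the snail atria, against 1664, 658 and 2166 in the snail ventricles, a far larger difference than in scallop, with log2 fold changes of 1.52 ± 0.59 in scallop and −7.09 ± 0.64 in snail. Scallop ventricle 3 lay within the range of the scallop atria for SLC17A5.

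A guidance pair ran the same way. NTN1, the axon guidance protein netrin 1, had 281, 305 and 364 normalized counts in the scallop atria, against 47.6, 30.1 and 95.7 in the scallop ventricles. It had 8.03, 0 and 1.99 in the snail atria, against 16.2, 29 and 17.5 in the snail ventricles, with log2 fold changes of 2.58 ± 0.54 in scallop and −2.82 ± 0.89 in snail. The netrin receptor UNC5C had 2334, 2853 and 2618 normalized counts in the scallop atria, against 737, 580.5 and 697 in the scallop ventricles. It had 34.3, 22 and 31.2 in the snail atria, against 91.8, 47.8 and 63.2 in the snail ventricles, with log2 fold changes of 1.95 ± 0.31 in scallop and −1.16 ± 0.35 in snail and no overlap of chambers. The neuromedin U receptor NMUR1 had log2 fold changes of 2.72 ± 0.92 in scallop and −4.16 ± 0.62 in snail, dmsr-8, a neuropeptide receptor of the worm, 4.01 ± 0.78 in scallop and −1.46 ± 0.50 in snail, and lat-2, a worm latrophilin, 1.30 ± 0.35 in scallop and −1.27 ± 0.36 in snail. A second scallop row of NMUR1 was ventricular (log2 fold change −2.68). CACNA1G, a T-type calcium channel known for pacemaking in heart cells, had 116, 198 and 116 normalized counts in the scallop atria, against 55.3, 15 and 68.5 in the scallop ventricles. It had 32.1, 25 and 17.3 in the snail atria, against 164, 113 and 49.7 in the snail ventricles, with log2 fold changes of 1.81 ± 0.66 in scallop and −1.97 ± 0.49 in snail and an interaction of 3.79 ± 0.89 (limma adjusted p = 0.00546). It was the only opposed gene among the 3 shared genes on the ion channel list, which missed the opposed channel irk-2. Among the genes of this paragraph and SLC17A5, omitting 1 library ended the calls of SLC17A5 in scallop (1.10 to 1.72 without atrium 1, 2 or 3 or ventricle 1 or 2), NTN1 in snail (−2.97 to −2.57 without ventricle 1, 2 or 3), UNC5C in snail (−0.97 to −0.91 without atrium 2 or ventricle 1) and lat-2 in snail (−1.19 without ventricle 3). Those of the other receptors and the channel were NMUR1 in scallop (2.08 to 2.59 without atrium 1 or 3 or ventricle 1 or 2), dmsr-8 in snail (−1.52 to −1.04 without atrium 1 or 2 or ventricle 1 or 2) and CACNA1G in scallop (1.16 to 1.94 without atrium 1, 2 or 3 or ventricle 2).

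Further genes of various roles pointed in this direction. SULF1, which removes sulfate groups from heparan sulfate (Miz0197710.1 in scallop and Afu011015 in snail), had 9319, 13019 and 11854 normalized counts in the scallop atria, against 4725, 3617 and 3480.5 in the scallop ventricles. It had 8.76, 6.07 and 7.31 in the snail atria, against 35.6, 64.9 and 36.3 in the snail ventricles. Neither species showed overlap, with log2 fold changes of 1.53 ± 0.30 in scallop and −2.43 ± 0.40 in snail. ARHGAP21, a GTPase-activating protein, had 4401, 4925 and 4626 normalized counts in the scallop atria, against 1456, 1684 and 1695 in the scallop ventricles. It had 148, 156 and 138 in the snail atria, against 547, 676 and 406 in the snail ventricles, with an interaction of 3.37 ± 0.32 (limma adjusted p = 9.44e-06). The adhesion protein SVEP1 had log2 fold changes of 2.01 ± 0.31 in scallop and −1.79 ± 0.45 in snail, and the lipid phosphatase PPAP2A 2.47 ± 0.31 in scallop and −2.20 ± 0.45 in snail. BAMBI, a decoy receptor of BMP signalling, had 2.12 ± 0.39 in scallop and −1.06 ± 0.33 in snail, and EPB41L2, a protein of the membrane skeleton, 1.19 ± 0.32 in scallop and −1.26 ± 0.25 in snail. The hormone receptor PTH1R had 4.71 ± 0.96 in scallop and −1.46 ± 0.25 in snail, but 2 further snail rows of PTH1R were atrial (log2 fold changes 1.17 and 3.48). Pdh had 4.39 ± 0.62 in scallop and −1.06 ± 0.34 in snail, and of its 3 snail rows 2 were atrial, so that its copies summed gave 0.51 in snail. Among transporters SLC44A5 had 3.27 ± 0.73 in scallop and −1.49 ± 0.52 in snail and the efflux pump ABCC4 1.58 ± 0.37 in scallop and −1.08 ± 0.32 in snail. Dependent on single libraries were the calls of ABCC4 in snail (−0.98 to −0.87 without atrium 2 or 3 or ventricle 3) and SLC44A5 in snail (−1.37 to −1.12 without atrium 2 or ventricle 1 or 3). So were those of BAMBI in snail (−1.04 to −0.91 without atrium 2 or 3 or ventricle 1 or 2), EPB41L2 in scallop (1.08 without atrium 1) and Pdh in snail (−1.11 to −0.82 without atrium 1 or 3 or ventricle 2 or 3).

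The opposed genes that were higher in the scallop ventricle and the snail atrium numbered 38, of which 23 were called in both species. PTGER4, a receptor for prostaglandin E2 (Miz0123300.1 in scallop and Afu007777 in snail), had 202, 261 and 328 normalized counts in the scallop atria, against 1308, 1529 and 680.3 in the scallop ventricles. It had 378, 408 and 291 in the snail atria, against 6.48, 34.2 and 9.41 in the snail ventricles. The groups did not overlap in either species, with log2 fold changes of −2.10 ± 0.42 in scallop (limma adjusted p = 0.00396) and 4.67 ± 0.58 in snail (limma adjusted p = 0.00115) and an interaction of −6.77 ± 0.73 (limma adjusted p = 1.26e-05). The direction holds for the scallop row with the highest mean only. The 3 other scallop rows of PTGER4 were atrial, 2 of them at log2 fold changes of 7.52 and 6.20 and the third at 1.15. The membrane peptidase MMEL1 had 1405, 964 and 935 normalized counts in the scallop atria, against 5760.2, 3932 and 3421 in the scallop ventricles. It had 2758, 1393 and 1178 in the snail atria, against 315, 266 and 209.6 in the snail ventricles, with log2 fold changes of −1.98 ± 0.34 in scallop and 2.66 ± 0.36 in snail and a single row in each table.

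Lipid, retinoid and xenobiotic metabolism had the largest share of opposed genes among lists with at least 3 shared genes. These were 5 of 6, all in this direction, of which 4 were called in both. The single direction depends on what the list holds. The retinol dehydrogenase Pdh and the lipid phosphatase PPAP2A, given above and not on the list, pointed to the scallop atrium and the snail ventricle. ALDH1A1, which makes retinoic acid from retinal, had 2742, 4399.5 and 1499 normalized counts in the scallop atria, against 18715, 5012 and 6159.6 in the scallop ventricles. It had 597, 981 and 611 in the snail atria, against 28.1, 37.6 and 73.9 in the snail ventricles. The log2 fold changes of −1.67 ± 0.53 in scallop and 4.02 ± 0.41 in snail came from groups without overlap in either species. The others were the flavin monooxygenase FMO5 (−1.25 ± 0.48 in scallop and 2.23 ± 0.31 in snail) and 3 genes of eicosanoid metabolism. PLA2G4A, the phospholipase that releases arachidonic acid, had log2 fold changes of −1.07 ± 0.39 in scallop and 1.31 ± 0.49 in snail, ALOX5, the 5-lipoxygenase, −1.28 ± 0.41 in scallop and 1.12 ± 0.33 in snail, and PTGR1, a prostaglandin reductase, −1.10 ± 0.91 in scallop and 2.83 ± 1.06 in snail, not called in scallop. Together with PTGER4, 4 genes of eicosanoid formation, breakdown and reception thus pointed to the scallop ventricle and the snail atrium, while the prostacyclin receptor PTGIR was atrial in both (1.61 ± 0.53 in scallop and 3.94 ± 0.70 in snail). No set test was made of these genes, which were brought together after their values were seen. For PTGER4 only the scallop row with the highest mean was ventricular, and its 3 other scallop rows were atrial. None of the 6 genes of the list was called in both species after TMM scaling, with edgeR or with DESeq2, and after the ribosomal rescaling 2 scallop directions turned (PTGR1 to 0.0432). Of the 4 genes called in both, 0 kept both calls without scallop atrium 3 or scallop ventricle 1, and 1 did without scallop atrium 2. The number was 2 without scallop atrium 1, scallop ventricle 2, snail atrium 2 or snail ventricle 3. Calls lost on leaving out 1 library were ALDH1A1 in scallop (−1.26 to −1.08 without atrium 3 or ventricle 1), FMO5 in scallop (−1.50 to −0.94 without atrium 1, 2 or 3 or ventricle 1 or 2), PTGR1 in snail (1.90 to 3.28 without atrium 1 or 3 or ventricle 1, 2 or 3) and PTGIR in scallop (1.57 to 1.66 without atrium 1, 2 or 3). The same holds for PLA2G4A in scallop (−1.21 to −0.99 without atrium 1, 2 or 3 or ventricle 1) and PLA2G4A in snail (0.86 to 1.53 without atrium 1, 2 or 3 or ventricle 1 or 3). It also holds for ALOX5 in scallop (−1.20 to −1.07 without atrium 2 or 3 or ventricle 1 or 2) and ALOX5 in snail (0.94 to 1.02 without atrium 2 or ventricle 3).

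A cholinergic pair shared this direction. BCHE, a cholinesterase, had 91, 54.4 and 108 normalized counts in the scallop atria, against 147, 217 and 1239 in the scallop ventricles. It had 1064, 838 and 1379 in the snail atria, against 58.3, 85.4 and 33.6 in the snail ventricles, with log2 fold changes of −2.06 ± 0.74 in scallop and 4.25 ± 0.38 in snail. unc-17, the vesicular acetylcholine transporter of the worm, had 242, 239.8 and 307 normalized counts in the scallop atria, against 321, 767 and 1960.3 in the scallop ventricles. It had 79.6, 53.8 and 72.5 in the snail atria, against 29.2, 17.1 and 20.2 in the snail ventricles, with log2 fold changes of −1.58 ± 0.58 in scallop and 1.60 ± 0.33 in snail. In scallop both rested largely on ventricle 3, which stood highest. Without scallop ventricle 3 the scallop log2 fold change was −1.13 ± 0.47 for BCHE, and −0.92 ± 0.42 for unc-17, neither of which was then called. TCF21, a transcription factor of the epicardium and of kidney podocytes, had 55.2, 69.7 and 81.8 normalized counts in the scallop atria, against 66.4, 197 and 1286 in the scallop ventricles. It had 127, 107 and 87.1 in the snail atria, against 3.24, 3.42 and 1.34 in the snail ventricles, called in snail (4.92 ± 0.41) but not in scallop (−1.90 ± 0.89, −0.74 ± 0.57 without ventricle 3). EBF2, another developmental factor, had 1.62, 0 and 0 normalized counts in the scallop atria, against 2.21, 1.5 and 67.6 in the scallop ventricles, so that ventricle 3 alone stood high in scallop. Omissions of 1 library ended the calls of BCHE in scallop (−2.14 to −1.13 without atrium 1 or 2 or ventricle 3) and unc-17 in scallop (−1.70 to −0.92 without atrium 1, 2 or 3 or ventricle 2 or 3).

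Calcium-binding genes were represented by CALM3, a calmodulin, and CALR, the calcium-binding chaperone calreticulin, both in this direction. CALM3 had 1622, 2292 and 2062 normalized counts in the scallop atria, against 7025, 4809 and 7232 in the scallop ventricles. It had 16.1, 46.3 and 30.6 in the snail atria, against 1.08, 8.54 and 2.69 in the snail ventricles, with log2 fold changes of −1.66 ± 0.31 in scallop and 2.81 ± 0.72 in snail. A second scallop row of CALM3 was atrial (3.34). CALR had log2 fold changes of −1.33 ± 0.47 in scallop and 0.95 ± 0.40 in snail, not called in snail. Without snail atrium 2 its snail value was 1.23 ± 0.40. Among metabolic genes, GLUD1, the glutamate dehydrogenase, had 5405, 6504 and 5569.6 normalized counts in the scallop atria, against 24387, 15507 and 13830.0 in the scallop ventricles. It had 126, 313 and 201 in the snail atria, against 63.7, 56.4 and 88.7 in the snail ventricles, opposed to the rest of the mitochondrial lists. ABAT, which breaks down GABA, had log2 fold changes of −1.14 ± 0.44 in scallop and 1.17 ± 0.35 in snail. FRRS1, a ferric reductase, had −2.99 ± 0.51 in scallop and 2.10 ± 0.59 in snail, with 2 atrial and 2 ventricular scallop rows, and PCBP3, an RNA-binding protein, −2.04 ± 0.50 in scallop and 2.49 ± 0.98 in snail. Calls lost on leaving out 1 library were CALR in scallop (−1.49 to −0.90 without atrium 1, 2 or 3 or ventricle 1 or 2), PCBP3 in snail (2.38 to 2.96 without atrium 1, 2 or 3 or ventricle 2), ABAT in scallop (−1.23 to −0.78 without atrium 1, 2 or 3 or ventricle 1) and ABAT in snail (0.97 to 1.13 without atrium 1 or ventricle 1 or 3). The snail direction of CALR turned to −0.31 where the median of all tested rows was set to 0.

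**Figure D4:**
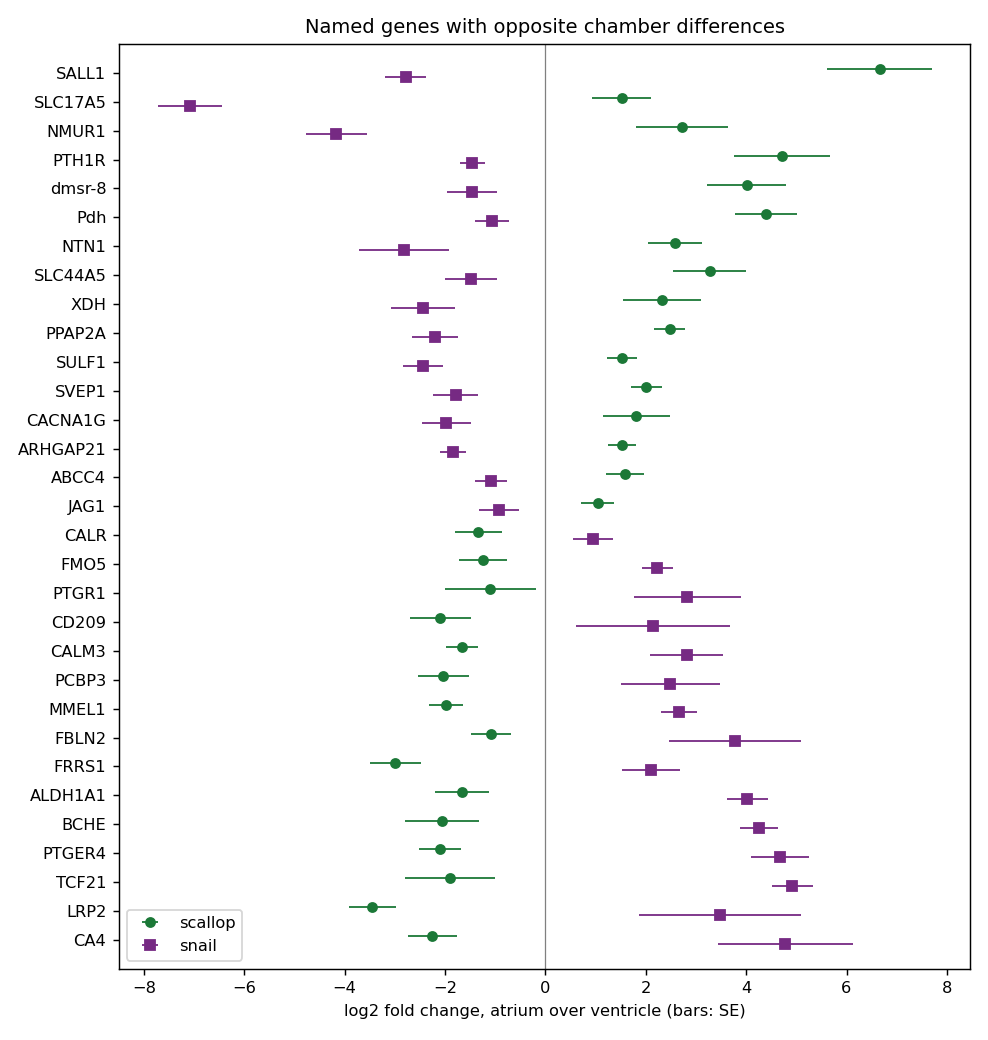
Log2 fold change, atrium over ventricle, with its SE for the 31 named genes whose chamber differences were opposed, in scallop (circles) and snail (squares), ordered by interaction. The widest separation is that of SALL1 at the top (6.66 in scallop and −2.79 in snail), and the scallop bar of PTGR1 (−1.10 ± 0.91) reaches nearest to 0.

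Receptors and enzymes of excretion and uptake were divided, 3 atrial in both, 2 atrial in scallop and ventricular in snail, and 3 the other way. Cubilin (CUBN), amnionless (AMN) and megalin (LRP2) act together in the kidney, where they take filtered proteins back into the cell. CUBN had 4364, 3458 and 3687 normalized counts in the scallop atria, against 504, 693 and 904 in the scallop ventricles. It had 236, 8.34 and 663 in the snail atria, against 27, 47.8 and 30.9 in the snail ventricles, atrial in both hearts but with snail atrium 2 below the ventricles. LRP2 had 1497, 2007 and 766 normalized counts in the scallop atria, against 27435, 10089 and 10922 in the scallop ventricles. It had 91.2, 3.79 and 397 in the snail atria, against 1.08, 15.4 and 2.69 in the snail ventricles, again with snail atrium 2 apart. AMN had 49.5, 4.78 and 55 normalized counts in the scallop atria, against 37.6, 113 and 1235 in the scallop ventricles. It had 25.5, 23.5 and 51.2 in the snail atria, against 0, 0 and 5.37 in the snail ventricles, a scallop difference that rested on ventricle 3 and was not called. CUBN and LRP2 therefore pointed to opposite chambers in scallop and, without snail atrium 2, to the same chamber in snail. The log2 fold changes of CUBN were 2.48 ± 0.33 in scallop and 1.69 ± 1.44 in snail, with 3.49 ± 0.52 in snail without atrium 2. Those of LRP2 were −3.45 ± 0.47 in scallop and 3.48 ± 1.62 in snail, with 5.26 ± 1.01 in snail without atrium 2, and neither gene was called in snail with all libraries. A second scallop row of LRP2 was atrial (1.92), while all 3 scallop and all 3 snail rows of CUBN were atrial.

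The transporters and enzymes of the list pointed both ways as well. CA4, a membrane-bound carbonic anhydrase, had 429.6, 297 and 386 normalized counts in the scallop atria, against 3834, 1391 and 1005 in the scallop ventricles. It had 74.4, 4.55 and 183 in the snail atria, against 0, 0 and 2.69 in the snail ventricles. The snail ventricles held 2 reads of CA4, and the ratio of atrial to ventricular reads was 103 with a 95% counting interval of 28.3 to 854. Its log2 fold changes were −2.25 ± 0.49 in scallop and 4.78 ± 1.35 in snail, but a second snail row was ventricular (−2.75) and the snail copies summed gave −0.082. SLC5A9, a sodium-coupled sugar transporter, had 355, 181 and 186 normalized counts in the scallop atria, against 18.8, 37.6 and 153 in the scallop ventricles. It had 152, 194 and 243 in the snail atria, against 1.08, 8.54 and 2.69 in the snail ventricles, with an interaction of −3.31 ± 1.05 (limma adjusted p = 0.0311). SLC22A14, of the organic ion transporter family, had log2 fold changes of 1.06 ± 0.37 in scallop and 4.04 ± 0.72 in snail and an interaction of −2.98 ± 0.72 (limma adjusted p = 0.00637). XDH, the last enzyme on the way from purines to uric acid, had 437, 290.4 and 563 normalized counts in the scallop atria, against 33.2, 343 and 48.8 in the scallop ventricles. It had 8.76, 32.6 and 39.9 in the snail atria, against 78.8, 219 and 121 in the snail ventricles, with log2 fold changes of 2.31 ± 0.78 in scallop and −2.44 ± 0.63 in snail, and the slit diaphragm protein NPHS1 pointed the same way (1.70 ± 0.61 in scallop and −0.96 ± 0.47 in snail, not called in snail). Summed over the 8 genes, normalized counts ranged between 13848 and 22984 in scallop atria, against 17160 and 36167 in scallop ventricles, and between 318 and 1632 in snail atria, against 158 and 348 in snail ventricles. Calls lost on leaving out 1 library were CA4 in snail (4.37 to 4.47 without atrium 1 or ventricle 1 or 2), SLC5A9 in scallop (1.58 to 2.40 without atrium 1 or 2 or ventricle 1), the interaction of SLC5A9 (−3.48 to −2.48 without scallop atrium 2 or 3 or scallop ventricle 3 or snail atrium 1 or 3 or snail ventricle 1 or 3) and XDH in scallop (1.67 to 2.57 without atrium 1, 2 or 3 or ventricle 1 or 3). Lost too were those of SLC22A14 in scallop (0.73 to 1.20 without atrium 1 or 2 or ventricle 1 or 2), NPHS1 in scallop (1.26 to 1.76 without atrium 1, 2 or 3 or ventricle 1 or 3) and the interaction of NPHS1 (2.22 to 2.72 without scallop atrium 1, 2 or 3 or scallop ventricle 1 or 3 or snail atrium 1 or 2 or snail ventricle 1 or 2). Of the 8 genes 2 were called atrial in both with all libraries, 0 without scallop atrium 1, scallop atrium 2 or scallop ventricle 1, and 1 without scallop ventricle 2.

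**Figure D5:**
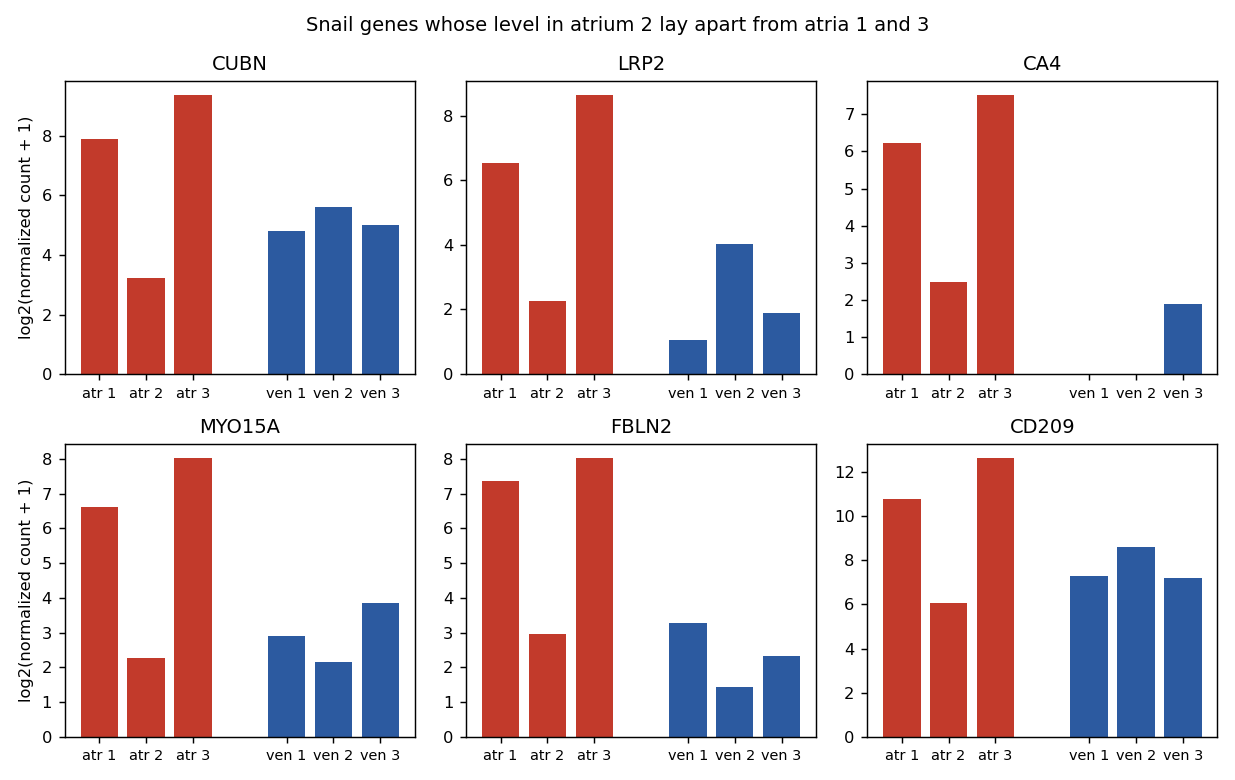
Level of 6 genes, as log2(normalized count + 1), in each snail library, atria (atr 1 to 3) at left and ventricles (ven 1 to 3) at right in each panel; vertical scales differ and start at 0. In every panel atrium 2 lies far below atria 1 and 3, for instance 66.7 normalized counts of CD209 against 1757 and 6457.

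The same library decided several other snail values, as the bar charts of single snail libraries show. FBLN2, the matrix protein fibulin 2, had 3360.4, 5147 and 2703 normalized counts in the scallop atria, against 5811, 5929 and 12808 in the scallop ventricles. It had 162, 6.82 and 261 in the snail atria, against 8.64, 1.71 and 4.03 in the snail ventricles, with log2 fold changes of −1.08 ± 0.39 in scallop and 3.77 ± 1.32 in snail and of 5.34 ± 0.63 in snail without atrium 2. The C-type lectins CD209 and MRC1, in vertebrates receptors of macrophages and related cells, behaved likewise. CD209 had 79.6, 33.4 and 66.2 normalized counts in the scallop atria, against 500.0, 135 and 211 in the scallop ventricles. It had 1757, 66.7 and 6457 in the snail atria, against 154, 389 and 145 in the snail ventricles. Its snail log2 fold change was 2.15 ± 1.54 and was not called, against 4.03 ± 0.65 without atrium 2. For MRC1 the snail values were 2.49 ± 1.56 with all libraries and 4.42 ± 0.59 without atrium 2. MYO15A had a snail log2 fold change of 4.36 ± 0.68 without atrium 2. The scallop call of FBLN2 was lost without ventricle 3 (−0.70 ± 0.28), and the ribosomal rescaling turned it to 0.11. Losses on leaving out 1 library were FBLN2 in scallop (−1.03 to −0.70 without atrium 1 or 3 or ventricle 3) and FBLN2 in snail (2.81 to 4.23 without atrium 1 or 3 or ventricle 1, 2 or 3). For the lectins they were MRC1 in scallop (−2.35 to −1.46 without atrium 1 or 2 or ventricle 1 or 2) and CD209 in scallop (−1.73 without atrium 2). Without snail atrium 2 the counts over the 323 genes were 62 atrial in both, 154 ventricular in both, 18 atrial in scallop and ventricular in snail, and 24 the other way, with 81 interactions called. Without scallop ventricle 3 they were 57, 156, 23 and 20, with 90 interactions called.

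Of 8 shared genes sorted to hemocytes and immunity, 4 were atrial in both and called in both, namely Mco1, GIMAP7, IL16 and TLR1. Mco1, a multicopper oxidase of the fly, had 7645, 9222 and 7831 normalized counts in the scallop atria, against 4219, 1959 and 3434 in the scallop ventricles. It had 263, 195 and 156 in the snail atria, against 42.1, 119.6 and 43 in the snail ventricles, with log2 fold changes of 1.43 ± 0.34 in scallop and 1.72 ± 0.46 in snail. The cytokine IL16 had 1.26 ± 0.42 in scallop and 2.37 ± 0.39 in snail, and the Toll-like receptor TLR1 1.84 ± 0.69 in scallop and 3.09 ± 0.70 in snail. GIMAP7, an immune GTPase, had 296, 224 and 2.97 normalized counts in the scallop atria, against 0, 4.51 and 2.82 in the scallop ventricles, so that scallop atrium 3 lay among the ventricles, and 4.54 ± 1.50 in scallop and 1.32 ± 0.28 in snail as log2 fold changes. A second scallop row of GIMAP7 was ventricular (−2.75, limma adjusted p = 0.0111). TLR3, a receptor for double-stranded RNA, was opposed, with −1.93 ± 0.74 in scallop and 1.65 ± 0.33 in snail. RNASEH2C, which was ventricular in both, is a subunit of a general ribonuclease. Summed over the 8 genes, normalized counts ranged between 8914 and 10387 in scallop atria, against 3605 and 6352 in scallop ventricles, and between 1128 and 17187 in snail atria, against 638 and 1365 in snail ventricles, the lowest snail atrium being atrium 2. In scallop Mco1 alone made up most of each atrial sum, while CD209, MRC1 and TLR3 were ventricular. The list's median log2 fold change was −0.24 in scallop and 1.93 in snail, so the scallop sum does not stand for the list. Whether hemocytes held in the chambers had a part in these differences was not tested. The 4 genes called atrial in both became 1 without scallop atrium 1, scallop atrium 2 or scallop ventricle 1. Leaving out 1 library ended the calls of GIMAP7 in scallop (3.44 to 3.81 without atrium 1 or 2 or ventricle 1) and IL16 in scallop (0.99 to 1.39 without atrium 1 or 2 or ventricle 1). Of the Toll-like receptors it ended those of TLR1 in scallop (1.35 to 2.07 without atrium 1, 2 or 3 or ventricle 1 or 2) and TLR3 in scallop (−1.96 to −1.29 without atrium 2 or 3 or ventricle 1 or 3).

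Among the genes that ran the same way, the largest interaction was that of RHOQ, a small GTPase (Miz0024580.1 in scallop and Afu004102 in snail). It had 1822, 2845 and 2246 normalized counts in the scallop atria, against 7492, 6131 and 2373 in the scallop ventricles. It had 2.19, 0.758 and 1.99 in the snail atria, against 287, 294 and 328 in the snail ventricles. Both hearts were ventricular, with log2 fold changes of −1.08 ± 0.44 in scallop (limma adjusted p = 0.0386) and −6.89 ± 0.35 in snail (limma adjusted p = 8.03e-05), and the interaction was 5.81 ± 0.58 (limma adjusted p = 9.44e-06). In scallop, ventricle 3 lay among the atria, and the ribosomal rescaling turned the scallop value to 0.12. REM1, a GTPase that inhibits voltage-gated calcium channels, had 413, 381 and 362 normalized counts in the scallop atria, against 988, 738 and 1593 in the scallop ventricles. It had 10.9, 35.6 and 22.6 in the snail atria, against 445, 606 and 515 in the snail ventricles, with log2 fold changes of −1.45 ± 0.38 in scallop and −4.57 ± 0.43 in snail and an interaction of 3.13 ± 0.58 (limma adjusted p = 0.000854), but 3 of its 5 snail rows were atrial. RELN, the secreted matrix protein reelin, was atrial in both, with 3.73 ± 0.43 in scallop and 1.08 ± 0.61 in snail, not called in snail, and an interaction of 2.65 ± 0.77 (limma adjusted p = 0.0188). Of the 13 same-direction genes whose interaction was called, RHOQ, REM1, Tm2 and Mlc1 were ventricular in both, all with the larger difference in snail, and 9 were atrial in both, 8 of them with the larger difference in snail and RELN with the larger in scallop. Calls that depended on single libraries were RHOQ in scallop (−1.24 to −0.75 without atrium 1, 2 or 3 or ventricle 1 or 2) and the interaction of RELN (2.28 to 2.56 without scallop atrium 1 or 3 or scallop ventricle 2 or snail atrium 1 or snail ventricle 1).

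Smaller groups were divided between the chambers. Of 5 shared genes of translation and ribosome biogenesis, the mitochondrial elongation factor GFM2 was ventricular in both (−1.32 ± 0.41 in scallop and −1.12 ± 0.31 in snail), while EEF2, the cytosolic elongation factor, was atrial in both (1.40 ± 0.60 in scallop and 1.08 ± 0.30 in snail). UTP11L, of ribosome assembly, had −0.996 ± 0.39 in scallop and −0.80 ± 0.56 in snail and was called in neither. No cytosolic ribosomal protein, proteasome, cell cycle or germline gene of the lists was shared. The cell cycle list was incomplete, since the shared genes FEN1 and CycB3, given at the end, were not on it. Of 8 chaperones and antioxidants, 5 were ventricular in both, with the mitochondrial superoxide dismutase SOD2 at −1.94 ± 0.28 in scallop and −1.49 ± 0.23 in snail, the mitochondrial chaperone HSPA9 at −1.24 ± 0.31 in scallop and −1.56 ± 0.26 in snail and the peroxiredoxin Prx5 at −1.45 ± 0.29 in scallop and −1.39 ± 0.21 in snail. Catalase, CAT, which breaks down hydrogen peroxide, was atrial in both (1.62 ± 0.66 in scallop and 2.18 ± 0.28 in snail). ESRRG, a nuclear receptor that drives mitochondrial genes in vertebrate heart, was ventricular in both (−1.35 ± 0.36 in scallop and −1.44 ± 0.42 in snail). ESRP2, listed among the transcription factors, is a splicing regulator and was atrial in both (2.15 ± 0.57 in scallop and 1.45 ± 0.56 in snail). The cation-chloride cotransporter relative SLC12A9 was ventricular in both (−1.48 ± 0.36 in scallop and −1.05 ± 0.27 in snail), and the zinc transporter SLC39A12 had 1.78 ± 0.41 in scallop and 1.83 ± 0.89 in snail, not called in snail. Atrial in both were also ARHGEF33, a guanine nucleotide exchange factor (1.88 ± 0.66 in scallop and 1.22 ± 0.49 in snail), and hif-1, the hypoxia-inducible factor of the worm (1.14 ± 0.36 in scallop and 1.60 ± 0.49 in snail). TMPRSS12, a membrane serine protease, had 1.19 ± 0.54 in scallop and 2.02 ± 0.28 in snail and was not called in scallop. Where the median of all tested rows was set to 0, the snail direction of EEF2 turned to −0.18 and the scallop direction of UTP11L to 0.017. Calls that depended on single libraries were EEF2 in scallop (0.83 to 1.75 without atrium 1, 2 or 3 or ventricle 2 or 3), EEF2 in snail (0.80 to 0.98 without atrium 2 or ventricle 3), GFM2 in scallop (−1.33 to −0.97 without atrium 1 or 2 or ventricle 1), GFM2 in snail (−0.83 without ventricle 2), ESRRG in snail (−1.10 without ventricle 1) and SLC12A9 in snail (−0.999 to −0.86 without atrium 3 or ventricle 2). Further ones were ARHGEF33 in scallop (1.05 to 1.94 without atrium 1, 2 or 3 or ventricle 1 or 2), ARHGEF33 in snail (0.76 to 1.40 without atrium 1, 2 or 3 or ventricle 1 or 2), CAT in scallop (0.86 to 1.81 without atrium 1, 2 or 3 or ventricle 1 or 2), ESRP2 in snail (0.98 to 1.63 without atrium 1, 2 or 3 or ventricle 1 or 2), hif-1 in scallop (1.02 to 1.13 without atrium 1 or 3) and hif-1 in snail (1.48 to 1.52 without atrium 1 or 3).

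Repeated symbols limited what could be matched. For 20 of the 323 symbols the rows of a species pointed to different chambers, namely ACTB, CA4, CALM3, FRRS1, GIMAP7, GPX3, HMCN1, LRP2, MAN2B1, Mlc1, NMUR1, PTGER4, PTH1R, Pdh, REM1, SLC22A14, WBSCR27, ZNFX1, irk-2 and unc-22. HMCN1, the matrix protein hemicentin, had −1.02 ± 0.50 in scallop and 2.65 ± 0.43 in snail for its most abundant rows, but the 5 other scallop rows of HMCN1 were atrial, with log2 fold changes between 1.84 and 4.11. Mixed symbols made up 10 of the 68 opposed genes and 10 of the 255 same-direction genes. Of the 237 symbols with a single row in each table at any mean, 38 genes were called atrial in both, 129 ventricular in both, 13 atrial in scallop and ventricular in snail, and 15 the other way, so that 85.6% of the calls in both ran the same way.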

How the data were processed

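Polyadenylated RNA of 12 libraries was sequenced, 3 per chamber and species. Each species came as a table of selected genes. Its library columns hold a signal that the authors normalized per library, found here to be read counts divided by a size factor, since 100% of values were whole reads within 0.01 after rescaling. The deposited tables also hold the authors' log2 fold changes (ventricle over atrium), the test score per gene and p-values. Per the submitters' processing notes, which give no roles, the tools were DESeq2 1.20.0, StringTie 1.3.3b, HISAT2 2.0.5 and featureCounts 1.5.0. No source used here gives the genome build, the annotation or whether strand was used; reads of overlapping genes or of near-identical copies may therefore have been shared between rows.

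The rows of each table with a mean of at least 10 were tested with limma 3.58.1 in R 4.3.3 on log2(normalized count + 1), which understates changes of low genes, with a mean-variance trend and Benjamini-Hochberg adjustment over all tested rows. Counts as deposited would have called for edgeR; the design was written for either unit. The interaction was fitted over the 323 shared symbols in all 12 libraries. A call needed an adjusted p under 0.05 and, within a species, a 2-fold change. Alternatives included edgeR 4.0.16 and DESeq2 1.42.0 on the recovered reads, other scalings, pseudocounts, filters, copy rules and leaving out each library. Intervals on read ratios cover counting error only. The scripts were tested on simulated data. Of species differences put in at 2-fold, 2 of 100 were called as interactions, and at 4-fold 21 of 100. Of 4-fold chamber changes, 10 of 100 passed the adjusted p in scallop and 17 of 100 in snail. A missing interaction call is therefore no evidence of equal differences.

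The text names 95 genes by rule: in each direction group the 8 called in both species with the largest smaller fold change, the 8 opposed genes of each kind and 4 same-direction genes with the largest called interaction, the 3 genes of each list of at least 3 with the highest lower mean, and all shared genes of the sarcomere, calcium, ion channel and heart transcription factor lists. Other genes were named after their values were seen. The shared symbols and the function lists were chosen with earlier results of these data known. There were 0 library columns left unused.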

Additional observations from a re-analysis of the deposited data

Results flagged for a closer look

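The interaction of species and chamber, the scallop log2 fold change minus the snail log2 fold change, passed a limma adjusted p under 0.05 for 37 of the 95 named genes. For opposed genes this is fixed by the listing of both fold changes. Over all 323 genes 76 passed (23.5%). Some genes were named for their called interaction, so the count among named genes is no rate of species differences. Each group below has 3 libraries, too few for a single library to be tested as standing apart.

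Positive values, a difference more toward the atrium in scallop than in snail, were 9.45 for SALL1, 8.61 for SLC17A5, 6.88 for NMUR1, 6.17 for PTH1R, 5.81 for RHOQ, 5.47 for dmsr-8, 5.45 for Pdh, 5.41 for NTN1, 4.76 for SLC44A5, 4.75 for XDH and 4.68 for PPAP2A. Smaller ones were 3.96 for SULF1, 3.80 for SVEP1, 3.79 for CACNA1G, 3.37 for ARHGAP21, 2.66 for ABCC4, 1.97 for JAG1, 1.64 for Tm2 and 1.52 for Mlc1. RHOQ, Tm2 and Mlc1 among them were ventricular in both species.

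Negative values, a difference more toward the atrium in snail than in scallop, were −7.04 for CA4, −6.94 for LRP2, −6.82 for TCF21, −6.77 for PTGER4, −6.31 for BCHE, −5.69 for ALDH1A1, −5.41 for FRAS1, −5.09 for FRRS1, −4.85 for FBLN2, −4.64 for MMEL1, −4.52 for PCBP3 and −4.48 for CALM3. Smaller ones were −3.48 for FMO5, −3.32 for FREM1, −3.31 for SLC5A9, −2.44 for PCSK1, −2.28 for CALR and −1.84 for FZD9. FRAS1, FREM1, SLC5A9, PCSK1 and FZD9 were atrial in both species. Of these 37 genes, CA4, LRP2 and FBLN2 rest on snail libraries in which atrium 2 lay far below atria 1 and 3, and BCHE and TCF21 on scallop libraries in which ventricle 3 stood highest.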

How the results depend on the processing

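The main counts were 303 scallop and 277 snail calls, 76 interactions, and 59 genes atrial in both, 156 ventricular in both, 25 atrial in scallop and ventricular in snail, and 23 the other way. With no filter on the mean 89 were atrial in both. With a mean of at least 50 the counts were 39 interactions, 31 atrial in both, 16 atrial in scallop and ventricular in snail, and 11 the other way. TMM scaling left 88 ventricular in both and 9 ventricular in scallop and atrial in snail. Quantile normalization gave 198 scallop calls, 28 atrial in both, 91 ventricular in both and 9 ventricular in scallop and atrial in snail. With the median of all tested rows set to 0 there were 128 scallop calls, 256 interactions, 23 atrial in both, 18 ventricular in both and 0 ventricular in scallop and atrial in snail. Of those interactions 243 were positive and 13 negative, against 35 and 41 in the main fit. With symbols of a single row 44 interactions were called, 38 genes were atrial in both, 13 atrial in scallop and ventricular in snail, and 15 the other way. By edgeR 193 scallop genes were called, 78 were ventricular in both, 13 atrial in scallop and ventricular in snail, and 9 the other way. By DESeq2 171 scallop genes were called, 53 were ventricular in both and 12 ventricular in scallop and atrial in snail. The rescaling of scallop libraries to equal ribosomal protein medians, chosen after seeing the data, gave 113 scallop calls, 122 interactions, 5 ventricular in both and 1 ventricular in scallop and atrial in snail. Positive interactions made up 100 of the 122 and negative ones 22. The cause of these shifts was not tested beyond the change of scale itself.

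Leaving out 1 library at a time gave 27 to 62 genes atrial in both, 126 to 156 ventricular in both, 17 to 23 atrial in scallop and ventricular in snail, 12 to 24 the other way, 68 to 90 interactions, 211 to 303 scallop calls and 229 to 277 snail calls. The lowest count of each of the 4 groups of genes came without a scallop atrium. Deviations of same-numbered libraries had correlations of −0.129, −0.165 and −0.116 in scallop and −0.059, −0.0915 and 0.0586 in snail. With 3 libraries per chamber these values cannot decide whether same-numbered libraries share an animal. A fit with the number as a replicate block gave 281 scallop and 268 snail calls, 75 interactions and 49, 145, 23 and 20 genes in the 4 groups.

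Over 4870 recomputed values of named genes, 4327 kept direction and call, 478 kept direction only, 46 gained a call and 19 turned. Under quantile normalization ACTB in scallop stood at 0. With the median set to 0, ACTB in scallop stood at 0.000144, UTP11L at 0.017 and unc-22 at 0.0362, while snail values were −0.31 for CALR, −0.11 for COL5A2, −0.18 for EEF2 and −0.18 for HES1, and the interaction of FZD9 was 0.41. With the copies summed CA4 in snail stood at −0.082 and Pdh at 0.51, and the interaction of Mlc1 was −0.67. After the ribosomal rescaling scallop values were 0.18 for ACTB, 0.11 for FBLN2, 0.0432 for PTGR1, 0.12 for RHOQ, 0.0678 for TNNT2, 0.20 for UTP11L and 0.21 for unc-22. Depth limits the snail side most, where a library held 606309 to 1165104 reads on the listed genes.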

Other observations

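Shared genes outside the function lists numbered 120, with 33 atrial in both, 56 ventricular in both, 13 atrial in scallop and ventricular in snail, and 18 the other way. These genes were named after their values were seen. Among the atrial ones, the cyclase ADCY1, which makes cyclic AMP, had 1.84 ± 0.37 in scallop and 2.67 ± 0.40 in snail, the proprotein convertase FURIN 2.97 ± 0.77 in scallop and 1.29 ± 0.25 in snail and SOSTDC1, a secreted antagonist of BMP and Wnt signalling, 1.87 ± 0.71 in scallop and 2.07 ± 0.66 in snail. RGMB, a co-receptor of BMP signalling, had 1.56 ± 0.57 in scallop and 1.56 ± 0.23 in snail, so that the secreted antagonist SOSTDC1 and a co-receptor of the same pathway lay on the atrial side of both hearts. The other BMP genes named above were divided, NOG being atrial in both and BAMBI opposed. The scallop call of SOSTDC1 was lost without atrium 1, 2 or 3 (1.78 to 1.98). Its snail call was lost without atrium 1 or 3 or ventricle 1 or 3 (1.68 to 2.15). RGMB lost its scallop call without atrium 1, 2 or 3 or ventricle 2 (0.84 to 1.72).

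Among the genes ventricular in both, FEN1, a nuclease of DNA replication and repair, had −1.52 ± 0.38 in scallop and −1.29 ± 0.31 in snail and CycB3, a B-type cyclin of the fly, −1.87 ± 0.68 in scallop and −1.97 ± 0.54 in snail. MST1R, a receptor tyrosine kinase, pointed to the scallop atrium and the snail ventricle with 3.28 ± 0.92 in scallop and −1.36 ± 0.37 in snail, as did PTPRM, a receptor-type phosphatase, with 3.63 ± 0.75 in scallop and −1.13 ± 0.26 in snail, and GLUL, the glutamine synthetase, with 2.11 ± 0.76 in scallop and −1.04 ± 0.25 in snail. GLUL, which turns glutamate into glutamine, and GLUD1, which turns it into 2-oxoglutarate, pointed to opposite chambers in scallop and again in snail. F13A1, a transglutaminase of clotting, pointed to the scallop ventricle and the snail atrium with −2.20 ± 0.36 in scallop and 1.16 ± 0.49 in snail, as did SPDEF, a transcription factor of secretory epithelia, with −2.06 ± 0.54 in scallop and 1.37 ± 0.42 in snail. Single-library omissions ended the calls of CycB3 in scallop (−1.88 to −1.29 without atrium 1 or 2 or ventricle 2) and in snail (−1.80 to −1.77 without ventricle 1 or 3). They also ended those of GLUL in scallop (1.63 to 2.28 without atrium 1, 2 or 3 or ventricle 1) and in snail (−0.98 to −0.96 without atrium 3 or ventricle 1 or 3). Snail calls were also lost for MST1R (−0.99) and PTPRM (−0.98) without atrium 2 and for SPDEF (0.98) without ventricle 2.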
